A study of Mus musculus with 10 samples.

Results

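The regions described are those of the Endoderm HEB list that overlapped, by at least 1 bp, no region of the Endoderm SMAD2/3, Endoderm+SB HEB or ESC HEB lists. They were selected on listing alone, that is on the region edges and the authors' calls in these 4 lists, are called HEB-only regions below, and numbered 8214 of 18981 Endoderm HEB regions, or 43.3%, within 78263 regions over the 6 lists of the series. All lists came from the mouse embryonic stem cell (ESC) line CGR8. The libraries were ESC (grown with serum and LIF, without feeders), ESC+SB (10 µM SB431542 for 24 hours), Endoderm (100 ng/ml Activin A from day 2, chromatin at day 4, in serum-free medium) and Endoderm+SB, in which 10 µM SB431542 was present for 48 hours from day 2. SMAD2/3 was profiled in ESC and Endoderm without the inhibitor only, and 1 antibody served for SMAD2 and SMAD3. The labels give the Endoderm+SB cells the same cell type as the Endoderm cells, and do not state plainly whether Activin A was present together with the inhibitor. Each group had 1 ChIP library of 1 cell line, so no difference below has a replicate check, no test across samples was possible, and intervals (95%, exact) cover counting error only.

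HEB, the E protein encoded by Tcf12, belongs to the basic helix-loop-helix factors and binds E-boxes (CANNTG) as a dimer with itself or with tissue-specific partners. SMAD2 and SMAD3 are phosphorylated by activin and Nodal receptors, join SMAD4 and enter the nucleus, where they bind DNA beside other factors. SB431542 blocks the type I receptor kinases of activin, Nodal and TGF-beta. Endoderm gives rise to the gut tube, liver and pancreas, and activin or Nodal signalling is required for its formation.

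The Endoderm HEB list split into 8 classes by overlap with the other 3 lists, and the HEB-only class was the largest. The next was formed by 2823 regions (14.9%) that overlapped Endoderm SMAD2/3 alone. Regions overlapping ESC HEB alone numbered 2154, and those overlapping Endoderm+SB HEB alone 1127. These memberships follow from the rule and are a description. The lists differed in length, with 11033 Endoderm SMAD2/3, 10147 Endoderm+SB HEB and 17222 ESC HEB regions, and held 2600741, 2284735 and 4810688 ChIP tags inside their regions against 5051930 for Endoderm HEB. A region missing from a list had no value there, so lower HEB binding and a site under the listing threshold cannot be told apart. The lowest ChIP height in the Endoderm HEB list and in the 3 lists of the rule was 25.0, in the authors' units without a stated scaling.

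Of the 4 genes named as marks of this class, 3 had a HEB-only region, and the lists departed from the name for the other. Sox17, which encodes an SRY-box factor of definitive endoderm, had 2 Endoderm HEB regions, with ChIP heights of 38.4 and 35.6, and both overlapped ESC HEB regions. Map3k7 encodes TAK1, a MAP kinase kinase kinase that acts downstream of TGF-beta and BMP receptors. Its highest Endoderm HEB region (chromosome 4, 32094179 to 32094800, height 818) overlapped a SMAD2/3 region of height 54.1 and was therefore no HEB-only region. A second Map3k7 region, at 32098730 to 32099248, was HEB-only with a height of 84.4, 228 ChIP and 7 input tags. Foxa3 and Hnf4a each had 1 region, both HEB-only, and appeared in none of the other 5 lists. Their heights of 25.2 and 30.1 lay close to the lowest height of the list. Because ChIP lists give no RNA level, they do not check the labelled cell type.

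HEB-only regions at a transcription start are shown first, since the sequence there could be read from RefSeq. A HEB-only region covered the 5′ end of 245 genes, of which 195 matched a promoter entry of GRCm38.p6, each entry running from 250 bases before to 50 after the start. The regions themselves are on mm9, and the windows carry their own build's positions. The E-box, CANNTG, is in capitals. Rgs6, which encodes a regulator of G protein signalling, had the highest HEB-only region within 1 kb of a 5′ end (mm9 chromosome 12, 83717547 to 83718229, height 156, 483 ChIP and 14 input tags). The other 4 windows, of Isl1, Epcam, Dsp and Mesp2, are shown for the E-box forms they hold. They belong to genes of the lists used below whose 5′ end was covered and which have a single start in the table. The covering regions were low, with heights of 33.8 (Isl1), 29.1 (Epcam), 26.4 (Mesp2) and 25.1 (Dsp), where the list began at 25.0. Those of Isl1 and Dsp overlapped ESC+SB HEB, and that of Dsp lay 91 bp from ESC HEB. The Epcam region lay 338 bp from Endoderm SMAD2/3. The Mesp2 region lay 6898 bp from ESC+SB HEB and farther from each list of the rule. Dusp10, whose 5′ end was also covered, had no E-box in its window.
Rgs6: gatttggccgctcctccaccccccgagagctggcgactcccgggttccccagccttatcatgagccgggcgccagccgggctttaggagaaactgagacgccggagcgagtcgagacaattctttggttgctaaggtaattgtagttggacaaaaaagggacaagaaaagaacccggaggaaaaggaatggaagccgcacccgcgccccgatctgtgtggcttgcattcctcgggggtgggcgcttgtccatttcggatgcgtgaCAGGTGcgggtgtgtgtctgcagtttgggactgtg
Isl1: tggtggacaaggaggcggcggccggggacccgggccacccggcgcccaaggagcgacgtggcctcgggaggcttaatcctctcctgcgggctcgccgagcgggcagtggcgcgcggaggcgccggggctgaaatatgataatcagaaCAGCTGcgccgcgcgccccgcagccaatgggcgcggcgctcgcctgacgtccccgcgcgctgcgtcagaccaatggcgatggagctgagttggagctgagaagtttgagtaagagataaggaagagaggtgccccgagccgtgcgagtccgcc
Epcam: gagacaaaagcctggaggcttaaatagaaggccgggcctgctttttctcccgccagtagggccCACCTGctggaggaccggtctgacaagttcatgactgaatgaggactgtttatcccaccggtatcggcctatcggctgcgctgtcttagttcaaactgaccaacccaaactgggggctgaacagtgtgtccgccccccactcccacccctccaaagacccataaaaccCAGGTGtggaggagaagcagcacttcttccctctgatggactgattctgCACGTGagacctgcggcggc
Dsp: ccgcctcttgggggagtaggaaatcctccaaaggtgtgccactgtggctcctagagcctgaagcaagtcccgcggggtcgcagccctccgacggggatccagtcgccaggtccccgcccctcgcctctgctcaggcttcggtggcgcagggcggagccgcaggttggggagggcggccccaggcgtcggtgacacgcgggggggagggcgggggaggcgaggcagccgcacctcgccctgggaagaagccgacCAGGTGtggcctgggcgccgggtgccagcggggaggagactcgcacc
Mesp2: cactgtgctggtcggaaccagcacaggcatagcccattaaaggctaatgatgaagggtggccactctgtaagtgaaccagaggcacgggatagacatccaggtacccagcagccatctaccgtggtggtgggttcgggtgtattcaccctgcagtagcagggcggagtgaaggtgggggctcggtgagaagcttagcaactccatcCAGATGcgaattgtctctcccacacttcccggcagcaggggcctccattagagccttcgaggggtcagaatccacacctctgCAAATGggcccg
The windows lie at chr12:82617249-82617548, plus strand (Rgs6), chr13:116309639-116309938, minus strand (Isl1), chr17:87635729-87636028, plus strand (Epcam), chr13:38151044-38151343, plus strand (Dsp) and chr7:79810477-79810776, plus strand (Mesp2). Isl1 held 1 CAGCTG, and Rgs6 and Dsp each held 1 CAGGTG. Epcam held CAGGTG, its reverse complement CACCTG, and CACGTG, while Mesp2 held CAGATG and CAAATG.

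Over all 260 windows of the 195 matched genes, 38.1% held CAGGTG on either strand (95% CI 32.1 to 44.3), against 20.2% of all 32851 windows in the table. Windows of genes whose 5′ end was covered by another Endoderm HEB region, and by no HEB-only region, held it in 22.3% (20.5 to 24.3, 1891 windows of 1458 genes). CAGCTG, which is its own reverse complement, was in 30% (24.5 to 36.0) of the HEB-only windows, 18.2% (16.5 to 20.1) of the other HEB windows and 16.3% of all. CATCTG, the third E-box counted, was in 13.5% (9.56 to 18.2), 11.3% and 17.2%. Any E-box, which includes these 3, was in 81.5% (76.3 to 86.1), 67.3% (65.1 to 69.4) and 72.3%. The SMAD-binding word CAGAC, on either strand, was in 51.5% (45.3 to 57.8), 44.2% (42.0 to 46.5) and 49.6%. All windows of a matched gene entered, also those of starts that the region may not cover. Windows of 1 gene can share sequence, so the intervals are too narrow, and a match is a description of letters and not a bound site.

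Most HEB-only regions lay away from promoters. Of the 8214, 4260 (51.9%, 95% CI 50.8 to 52.9) had no gene listed, and 3507 (42.7%) lay in or near a gene but over 1 kb from its 5′ end. Only 447 (5.44%, 4.96 to 5.95) were promoter-proximal, meaning within 1 kb of a 5′ end, and 238 of these covered it. In the upper 50% of the Endoderm HEB list by tag enrichment the share was 2.47%. The share was 9.39% (8.34 to 10.5) among regions with Endoderm SMAD2/3 alone, 20.2% (17.9 to 22.7) among those with Endoderm+SB HEB alone, and 22.5% (21.7 to 23.3) among all other Endoderm HEB regions. Genic HEB-only regions had a median distance of 34.8 kb to the 5′ end of the listed gene. The share of Endoderm HEB regions that were HEB-only was highest on chromosome X (54.1%, 47.8 to 60.2, 140 of 259) and lowest on chromosome 11 (37.9%, 35.3 to 40.4).

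The promoter-proximal share moved with ChIP height, as did membership. In the lowest height quintile 8.92% (7.70 to 10.3) of HEB-only and 39.98% (37.7 to 42.3) of other regions were promoter-proximal, and in the highest 2.54% (1.58 to 3.86) and 8.76% (7.76 to 9.83). The HEB-only share was therefore lower in each of the 5 quintiles. Against regions with SMAD2/3 alone the gap was narrower where peaks were high, at 8.92% against 27.1% in the lowest quintile and 2.54% against 3.69% in the highest.

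**Figure D1:**
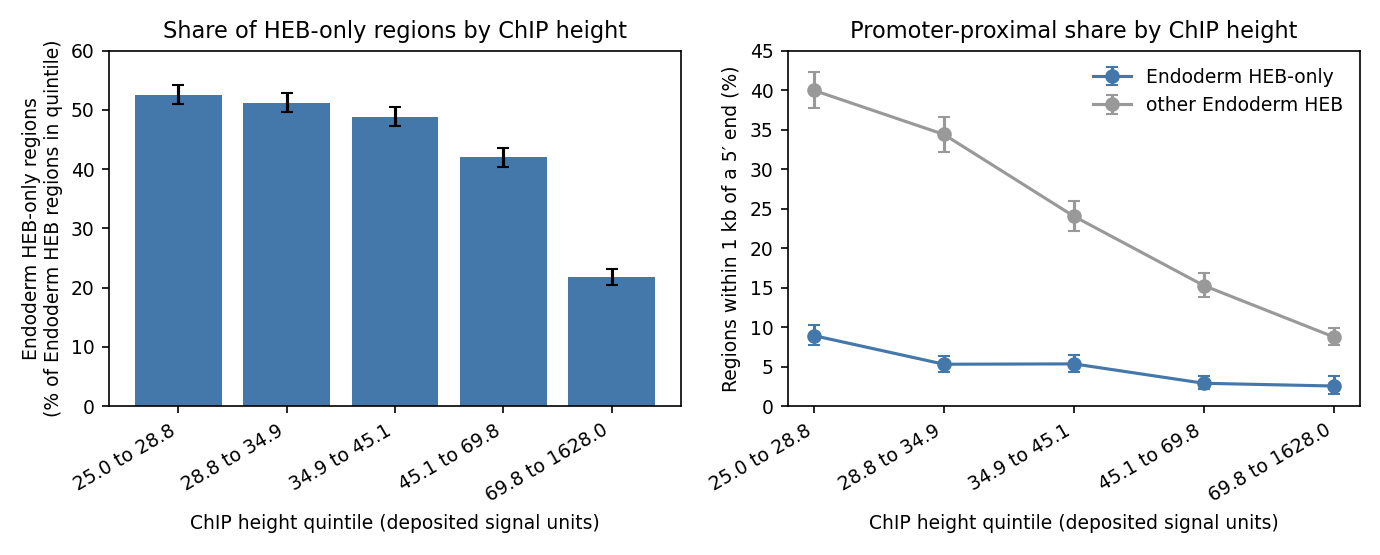
Left, the percentage of Endoderm HEB regions in each quintile of ChIP height that were HEB-only; right, the percentage of HEB-only and of other Endoderm HEB regions within 1 kb of a 5′ end, with exact 95% intervals as bars. HEB-only regions made up 52.6% of the lowest and 21.8% of the highest quintile, and their promoter-proximal share lay below that of the other regions in each quintile.

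HEB-only peaks were mostly low, and a minority were high. The rule depends on height through the listing thresholds, so the heights and their quintiles are a description. Their median ChIP height was 35.5 (95% CI 35.2 to 35.9), with 25.7 at the 5th and 90.3 at the 95th percentile, against 51.3 (49.8 to 52.8) for regions with SMAD2/3 alone and 35.8 (34.6 to 37.0) for regions with Endoderm+SB HEB alone. They made up 52.6% (51.0 to 54.2) of the lowest height quintile of the list and 21.8% (20.5 to 23.1) of the highest. By number, 1866 exceeded a height of 50, 306 exceeded 100 and 36 exceeded 200, the last being 7.24% (5.12 to 9.89) of all Endoderm HEB regions of that height. Tag enrichment stood otherwise. It is the authors' ratio of ChIP to input tags, which in some regions is below the plain quotient of the listed tags. Its median was 13.1 (13.0 to 13.2) in HEB-only regions, above the 12.3 (12.1 to 12.5) of the other regions and the 11.6 (11.1 to 12.2) of those with Endoderm+SB HEB alone, and below the 14.7 (14.4 to 15.1) of those with SMAD2/3 alone. The median HEB-only region held 145 ChIP and 11 input tags over 423 bp, and the median of the other regions 212 and 19 tags over 562 bp. Membership fell with width, from 61.2% of the narrowest quintile (up to 351 bp) to 17.9% of the widest (744 bp or more). A wider region has more bases with which to overlap, and the part of width in the split was not tested.

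The 10 highest HEB-only regions reached heights from 301 to 485, and 6 of them had no gene listed. The highest lay on chromosome 17, 24905278 to 24906465, with a height of 485, 1601 ChIP and 36 input tags, 60541 bp from the nearest Endoderm SMAD2/3 and 43751 bp from the nearest Endoderm+SB HEB region. Epb4.1l4a, which encodes a FERM domain protein, followed with a height of 396 (chromosome 18, 34003833 to 34004297). St6gal1, a sialyltransferase gene, had a region of height 370 and tag enrichment 89.3 at chromosome 16, 23332099 to 23332615. Tcte2 (326) and Tmem104 (305) were the other genes among the 10. By tag enrichment the first had no gene listed (chromosome 18, 22807729 to 22808350, 115). Zc3h12c, which encodes a CCCH zinc finger protein, came next at 107 (chromosome 9, 51961417 to 51961845, height 270), and Macrod2 (74.5), Rfesd (71.3) and Mipol1 (69.6) were also among the 10. Tcte2 and the region without a listed gene on chromosome 4 at 148942728 to 148943382 lay 890 and 503 bp from SMAD2/3. The others of the 10 highest regions were 19704 bp or more from SMAD2/3.

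The distance to SMAD2/3 was long in most cases. HEB-only regions lay a median of 46.3 kb (44.1 to 48.8) from the nearest Endoderm SMAD2/3 region, 4.94% of them within 1 kb, 21.9% (21.0 to 22.8) within 10 kb and 32.4% (31.4 to 33.5) beyond 100 kb. With every list limited to its upper 50% by height, the median was 88.1 kb, a setting in which fewer SMAD2/3 regions enter by construction. With only the Endoderm HEB list limited to its upper 50%, it was 43.4 kb by height and 55.7 kb by tag enrichment. Regions that also lacked SMAD2/3 but were listed with SB had a median of 51.4 kb (42.5 to 57.3), an interval that contains the HEB-only value. Regions that lacked SMAD2/3 but were listed in ESC HEB lay closer, at 27.9 kb (25.1 to 30.7). The median height was 35.3 (33.4 to 37.1) within 1 kb of SMAD2/3 and 35.1 (34.5 to 35.6) beyond 100 kb. The promoter-proximal share was 13.1% (9.93 to 16.7) within 1 kb and 4.09% (3.37 to 4.91) beyond 100 kb.

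**Figure D2:**
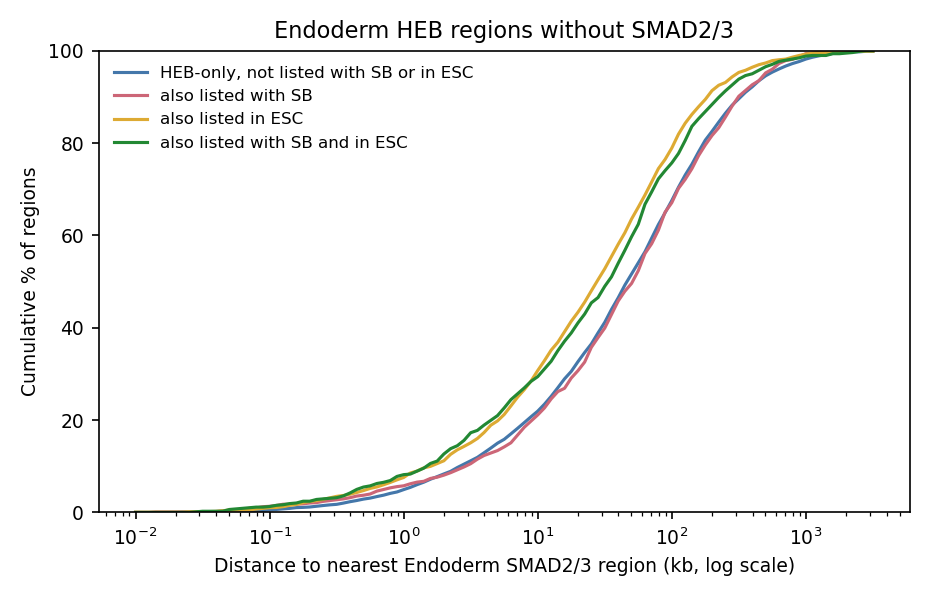
Cumulative percentage of Endoderm HEB regions without SMAD2/3 by distance to the nearest Endoderm SMAD2/3 region (kb, log scale), for HEB-only regions and the 3 classes also listed with SB, in ESC or in both. HEB-only regions and those also listed with SB run together, with 21.9% and 21.1% within 10 kb, and the 2 classes listed in ESC lie to the left with 30.7% and 29.4%.

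Few HEB-only regions sat at the edge of the rule. The smallest gaps to a region of the 3 lists were 2 bp and 4 bp. At 2 bp were a region of height 37.5 without a listed gene and one in Gadd45g of height 25.6. At 4 bp was a region without a listed gene (59.6). Just outside, a region in Fam169b (height 37.9) shared 1 bp with SMAD2/3, and one without a listed gene (38.1) shared 15 bp. Within 100 bp of such a region lay 95 HEB-only regions (1.16%), and 451 (5.49%) lay within 500 bp.

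The ESC+SB HEB and ESC SMAD2/3 lists were not used by the rule. ESC+SB HEB was overlapped by 212 HEB-only regions (2.58%, 95% CI 2.25 to 2.95), against 29.5% of all Endoderm HEB regions. The share was 0.762% in the upper 50% of the Endoderm HEB list by tag enrichment and 1.71% in that by height. The class with SMAD2/3 alone overlapped it in 5.88% (5.04 to 6.81) and the class with Endoderm+SB HEB alone in 15.5% (13.5 to 17.8). All 3 classes were chosen to lack ESC HEB, whose cells and antibody the ESC+SB HEB library shared, so low shares follow in part from the choice. The 212 regions were promoter-proximal in 46.2% (39.4 to 53.2), and their median height was 30.1 in endoderm. Their counterparts in ESC+SB HEB had a median height of 32.6, against 40.0 for that whole list. Thpo, the thrombopoietin gene, had the highest of them, with a height of 219 in endoderm and 28.6 in ESC+SB, close to the 28.0 at which the ESC+SB list began. Dagla followed with 114 and 46.9. ESC SMAD2/3 was overlapped by 1 HEB-only region, in the autophagy gene Atg16l2 (chromosome 7, 108445173 to 108445875, height 52.7), which is 0.0122% against 7.04% of all Endoderm HEB regions. The share was 0.444% in the class with Endoderm+SB HEB alone and 1.63% in the class with SMAD2/3 alone. The rule leaves out ESC HEB and Endoderm SMAD2/3 overlaps, so a low share follows largely from the choice.

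**Figure D3:**
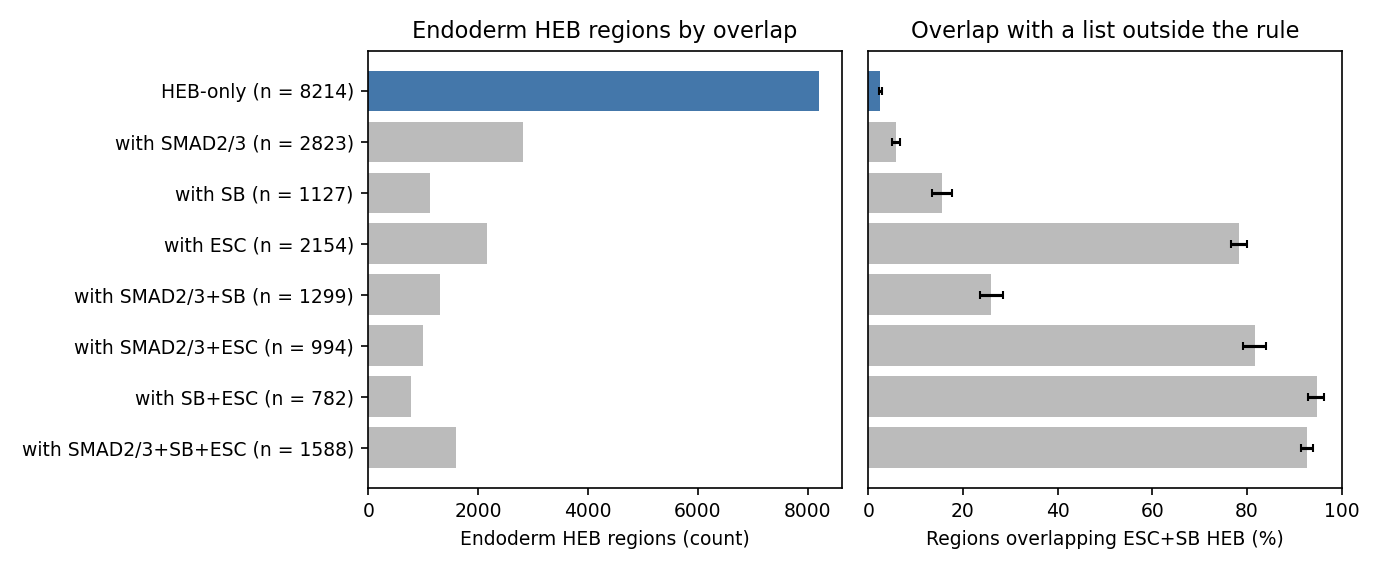
Left, the number of Endoderm HEB regions in each of the 8 classes of overlap with Endoderm SMAD2/3, Endoderm+SB HEB (SB) and ESC HEB (ESC); right, the percentage of each class that overlapped ESC+SB HEB, a list outside the rule, with exact 95% intervals. The HEB-only class is the largest at 8214 and has the lowest overlap at 2.58%.

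By gene, 2585 of the 5682 genes listed for Endoderm HEB (45.5%) had a HEB-only region. Of these, 1360 had no Endoderm HEB region of another kind. An Endoderm SMAD2/3 region was listed elsewhere for 1247 of the 2585 (48.2%), against 60.05% of all 5682 genes and 69.9% of the 3097 without a HEB-only region. Endoderm+SB HEB was listed for 1132 (43.8%, against 57.1% of all) and ESC HEB for 1288 (49.8%, against 60.9%). Genes in none of the other 5 lists numbered 611 (23.6%, 95% CI 22.0 to 25.3), against 613 (10.8%) of all. A gene whose Endoderm HEB regions all overlap another list is usually listed there too, so these differences are largely fixed by the rule.

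Several HEB-only regions were listed for 778 genes, 3 or more for 334 and 5 or more for 82. As many Endoderm HEB regions of any class were listed for 2079, 1064 and 380 genes. Of all Endoderm HEB regions, 43.3% were HEB-only. Counts per gene were not scaled by gene length, and the part of length in them was not tested. With the upper 50% of Endoderm HEB regions by height, 239 genes had several, and by tag enrichment 345. The 13 genes with 8 or more spread their HEB-only regions over 39.8 kb (Myo18a) to 1570 kb (Macrod2). Auts2, a gene of neuronal development, had 17 of its 33 Endoderm HEB regions in the class, spread over 1012 kb of chromosome 5 (131983388 to 132995334), with heights from 25.7 through a median of 36.5 to 71.7. Its other 16 regions included 1 of height 143, and 9 of them overlapped both SMAD2/3 and Endoderm+SB HEB. Accn1, which encodes an acid-sensing ion channel, had 13 of 20 (heights 26.03 to 89.2), and its highest region, at 524, was not HEB-only. Park2, the gene of the ubiquitin ligase parkin, had 11 of 21. Cdh4, which encodes R-cadherin, had 10 of 16 and the presynaptic adhesion gene Nrxn3 10 of 13, with maxima of 108 and 89.9. Macrod2 and Nav2 had 9 each and included single high regions of 228 and 214. Bcas3, Clybl, Myo18a, Odz4 and Ptprm had 8 each. All of the 13 genes but Grm8 also had Endoderm+SB HEB regions, from 2 in Myo18a to 15 in Macrod2. Macrod2 had 12 Endoderm HEB regions. Auts2 and Clybl had 13 Endoderm+SB HEB regions each, Odz4 and Ptprm 9 each and Nav2 8.

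Grm8, which encodes a metabotropic glutamate receptor, stood at the other end from Auts2, as all 9 of its Endoderm HEB regions were HEB-only. They spanned 732 kb of chromosome 6 (27255468 to 27987519) with heights from 25.99 through a median of 33.1 to 63.5, and the shortest distance from any of them to SMAD2/3 was 178 kb. No Endoderm SMAD2/3 or Endoderm+SB HEB region was listed for Grm8, while 1 ESC HEB region (height 37.4) and 2 ESC+SB HEB regions (up to 56.3) were. The other genes with 5 or more regions, all HEB-only, were Prex1 (6 regions, heights 26.9 to 62.7), Myo1d, Opcml and Pde11a (5 each). They were 5 of the 380 genes with 5 or more Endoderm HEB regions. Prex1, the gene of a Rac exchange factor, held its 6 within 29.5 kb. It also had 1 Endoderm SMAD2/3 region and 1 Endoderm+SB HEB region (44.1). Prex1 further had 3 ESC HEB and 3 ESC+SB HEB regions (up to 80.0 and 69.9). Pde11a, a phosphodiesterase gene, reached a height of 195. Pde11a and Opcml each had 2 Endoderm+SB HEB regions (up to 91.1 and 39.8) and 1 ESC HEB region. Myo1d had 2 Endoderm SMAD2/3 regions (up to 61.4) and no HEB region in the other lists.

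**Figure D4:**
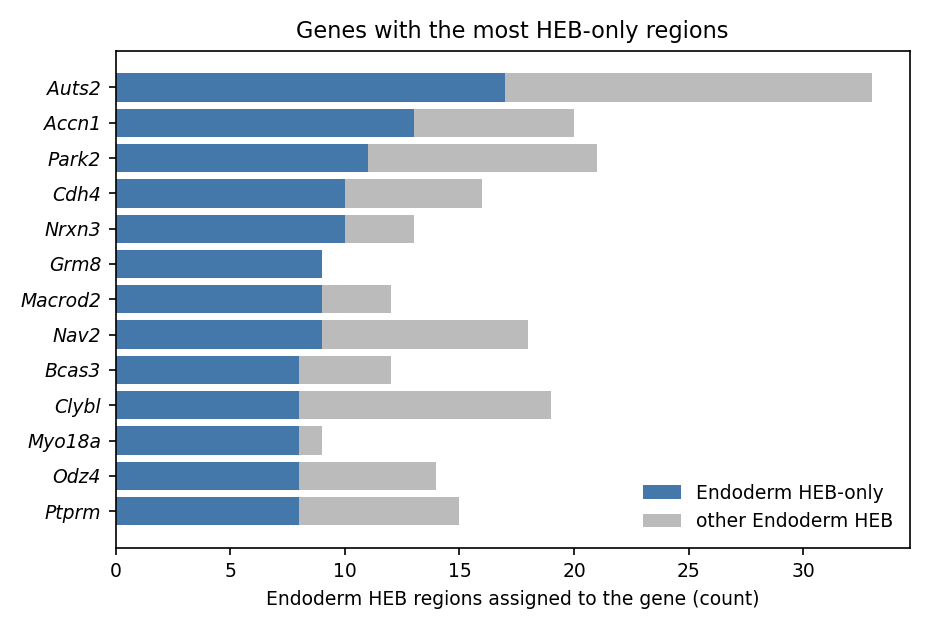
Number of Endoderm HEB regions assigned to each of the 13 genes with 8 or more HEB-only regions, divided into HEB-only and other regions. Auts2 has the most, 17 of 33, and Grm8 is the one of the 13 in which every region, 9 of 9, is HEB-only.

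Dense runs were few. The nearest other HEB-only region was a median of 47.1 kb away (44.9 to 49.9), and 24.3% (23.4 to 25.2) had one within 10 kb. From HEB-only regions, the nearest other Endoderm HEB region of any class was a median of 17.0 kb away, with 40.3% within 10 kb. Chained at gaps of up to 10 kb, the regions formed 154 runs of 3 or more and 7 of 5 or more. Cacna2d2, which encodes a calcium channel subunit, held a run of 6 over 18.4 kb (chromosome 9, 107347322 to 107365687, heights 29.5 to 52.6). A run of 6 without a listed gene, on chromosome 3 (104345342 to 104369604), reached 170. Runs of 5 lay at Tmem104, reaching 305, and at Isl1, over 15.8 kb with heights from 27.6 to 35.2. The highest Endoderm HEB region of Isl1, at 52.8, lay within that span and overlapped ESC HEB. A HEB-only region beside it was 149 bp from ESC HEB, and the one over the 5′ end overlapped ESC+SB HEB. Isl1 encodes a LIM homeobox factor of cardiac and foregut progenitors.

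Among 20 definitive endoderm genes, 19 had an Endoderm HEB region and 8 of these (42.1%) a HEB-only region, near the 45.5% of all genes. With the upper 50% of Endoderm HEB regions by height 5 genes had one, and by tag enrichment 4. Of their 36 regions 12 (33.3%) were HEB-only, against 43.3% of the list. Hhex, which encodes a homeobox factor of the anterior endoderm and liver bud, had 2 HEB-only regions side by side on chromosome 19 (37511135 to 37511734, height 71.8, and 37511788 to 37512793, height 66.9), 60.04 kb or more from SMAD2/3. Hnf4a, the gene of a nuclear receptor of hepatocytes, had its region over the 5′ end (chromosome 2, 163372198 to 163372942, 137 ChIP and 19 input tags). Its promoter entry holds 2 starts, and which of them the region covers is not known here. The region of Foxa3, a forkhead gene of gut and liver, was at chromosome 7, 19605746 to 19606244, with 133 and 10 tags, 2644 bp from the annotated start. Hhex, Hnf4a and Foxa3 were listed for no factor in any other library, and no other Endoderm HEB region was assigned to them.

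Gata4, Gata6, Dkk1 and Frzb held HEB-only regions beside regions of other classes. Gata4 had 2 of 4, at 60.1 and 58.1, below its highest region of 168, and 1 of the 2 lay 72 bp from a SMAD2/3 region. Gata6 had 1 of 3 (46.2), which lay 776 bp from SMAD2/3 and overlapped ESC+SB HEB. Dkk1 and Frzb encode secreted Wnt antagonists, and each had 1, of 49.4 (470 bp from the 5′ end) and 27.1. That of Dkk1 lay 179 bp from ESC HEB and 166 bp from ESC+SB HEB. The 11 genes with Endoderm HEB and no HEB-only region were Sox17, Foxa1, Foxa2, Cxcr4, Cer1, Gsc, Eomes, Mixl1, Lhx1, Otx2 and Prdm1. All but Sox17 had an Endoderm SMAD2/3 region.

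**Figure D5:**
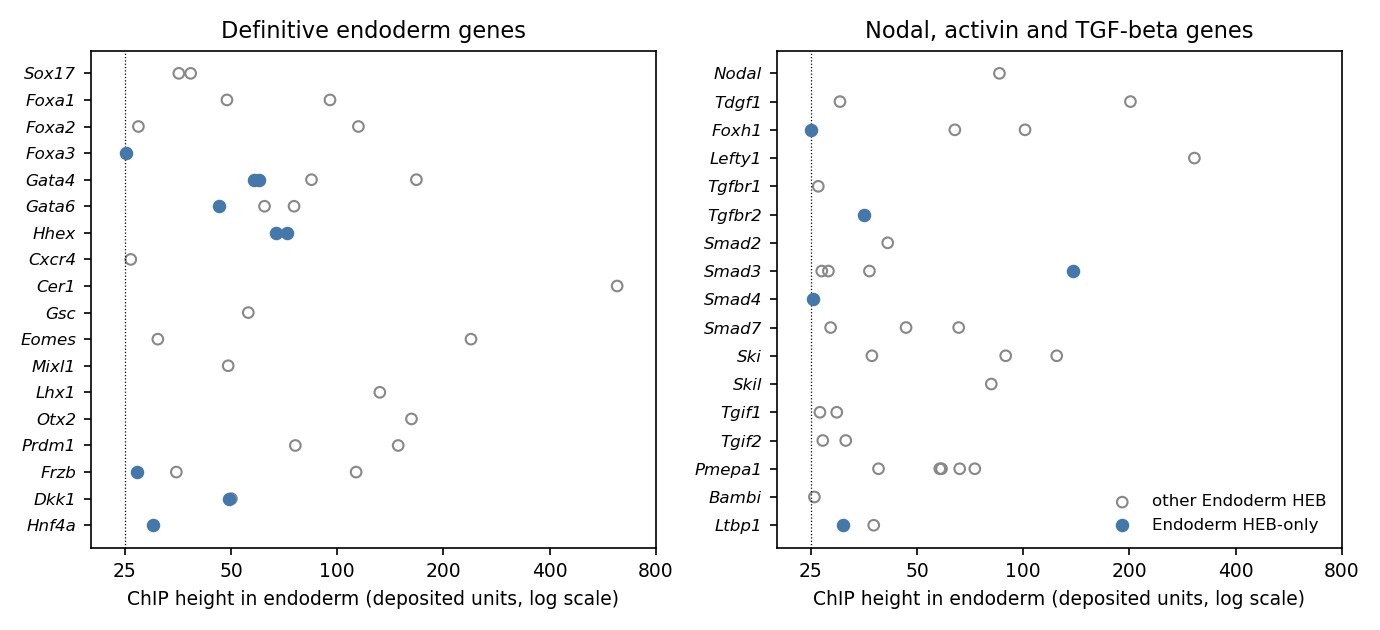
ChIP height (deposited units, log scale) of each Endoderm HEB region of the definitive endoderm and the Nodal, activin and TGF-beta genes shown, with HEB-only regions filled and others open; the dotted line marks a height of 25. HEB-only regions sit mostly at the low end, with Smad3 at 138 and Hhex at 66.9 and 71.8 the highest.

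Of 25 genes of the Nodal, activin and TGF-beta pathway, 17 had Endoderm HEB and 5 (29.4%, against 45.5% of all genes) a HEB-only region. Of their 34 Endoderm HEB regions 5 (14.7%) were HEB-only, against 43.3% of the list. The receptor gene Tgfbr2, which encodes the type II TGF-beta receptor, had 1 (chromosome 9, 116059761 to 116060485, height 35.5) and was in no other list. Among the effectors, Smad3 had the highest (chromosome 9, 63598075 to 63598768, height 138, 540 ChIP and 27 input tags, 7033 bp from the 5′ end), while its other 3 regions reached 36.6 at most. Smad4, the common partner SMAD, had 1 over its 5′ end at 25.3, and Foxh1, a forkhead partner of SMAD2/3, 1 at 25.1. The Smad4 region overlapped ESC+SB HEB and had a tag enrichment of 4.94. The Foxh1 region lay 506 bp from Endoderm SMAD2/3, 511 bp from ESC HEB and 487 bp from ESC+SB HEB. Ltbp1, which encodes a latent TGF-beta binding protein, had 1 at 30.9. Endoderm HEB but no HEB-only region was listed for the ligand and co-receptor genes Nodal and Tdgf1, the receptor gene Tgfbr1 and the effector Smad2. The same held for the feedback and repressor genes Lefty1, Smad7, Ski, Skil, Tgif1, Tgif2, Pmepa1 and Bambi.

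Mesoderm genes had the largest share of the lists, 12 of 14 genes with Endoderm HEB (85.7%) and 17 of their 30 regions (56.7%), beside 45.5% and 43.3% in the background. The mesoderm list held 23 genes. The single HEB-only regions of Hand1, Gata2 and Tbx20 lay 56, 52 and 72 bp from ESC HEB. Those of Hand1 and Gata2 also overlapped ESC+SB HEB. With regions within 500 bp counted as overlapping, these genes would have none. Kdr, the gene of a VEGF receptor, had 1 region (chromosome 5, 76350162 to 76350730, height 104, 492 ChIP and 12 input tags) and was in no other list. Pdgfra, the gene of the PDGF receptor alpha chain, had 1 at 81.1, Snai1, a repressor of E-cadherin, 2 at 45.8 and 43.5, and Meox1, a somite homeobox gene, 1 at 45.2. The highest Snai1 region, at 448, was not HEB-only, and the 2 genes without were Foxc1 and Foxc2. Neuroectoderm genes lay at the low end, 4 of 17 (23.5%) and 5 of 47 regions (10.6%), led by Pax7 (60.9), with Sox2 and Pax3 both at 26.9. With lists of 5 to 23 such genes, these shares describe the lists and were not tested.

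The other lists are given by their genes with a HEB-only region among those with Endoderm HEB, beside 45.5% of all genes, and by the HEB-only share of their regions, beside 43.3%. The Wnt pathway had 10 of 23 genes (43.5%) and 25 of 69 regions (36.2%). Wnt3 (89.6), a ligand of primitive streak formation, Sfrp1 (82.2), a secreted antagonist, and Gsk3b (74.9), the kinase that marks beta-catenin for destruction, were the highest. Of the transcription factors, Lef1 had 6 of 12 regions in the class (up to 69.6) and Tcf7l1 7 of 13. Epithelial adhesion and matrix genes had 9 of 20 (45%) and 18 of 48 regions (37.5%), led by N-cadherin, Cdh2 (7 of 10 regions, up to 96.2), and Itga6, an integrin that binds laminin (3 of 3, up to 78.6), then Sparc (42.4) and Col4a2 (33.5). Extraembryonic genes had 6 of 9 (66.7%) and 10 of 25 regions (40%). Fgfr2, an FGF receptor, had 4 of 9 regions in the class (up to 135), and its highest region, at 301, was not HEB-only. Hand1 (43.2), Cubn (28.0) and Dab2 (27.2) came after it. TAK1 and MAP kinase genes had 5 of 15 (33.3%) and 6 of 29 regions (20.7%), with Dusp4 (72.4), Mapk3 (41.8) and Dusp10 (30.7) beside Map3k7. Hepatic, pancreatic and gut genes had 4 of 12 (33.3%) and 4 of 23 regions (17.4%), in Prox1 (70.0), Nr5a2 (48.9), Onecut2 (28.8) and Afp (25.8). Pluripotency genes had 3 of 9 (33.3%) and 5 of 22 regions (22.7%), in Nr5a2, Esrrb (3 of 6 regions, up to 36.3) and Sox2. E protein and Id genes had 2 of 5 (40%) and 4 of 11 regions (36.4%), in Tcf4 (75.0) and Id4 (25.3). Over all lists, 13 of the 64 genes with a HEB-only region (20.3%) were in none of the other 5 region lists, near the 23.6% of all such genes.

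Of 29 microRNA genes listed for Endoderm HEB, 7 (24.1%, against 45.5% of all genes) had a HEB-only region, in 6 regions, and are named here because mature sequences were at hand (they were singled out after their values were seen). A region on chromosome 6 (124668784 to 124669031, height 34.9) lay 376 bp from Mir200c and 781 bp from Mir141, whose products repress the Zeb factors and maintain epithelial state. Another lay 195 bp from Mir205 (chromosome 1, 195333198 to 195333529, height 41.3). Mir30a (38.2) and Mir153 (31.2) were covered, and Mir182 (30.3) and Mir709 (49.1) were 291 and 470 bp away. The mature sequences from RefSeq (GRCm38.p6), with the seed (bases 2 to 8) in capitals, are as follows.
mmu-miR-200c-3p: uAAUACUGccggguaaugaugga
mmu-miR-141-3p: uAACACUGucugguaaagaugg
mmu-miR-205-5p: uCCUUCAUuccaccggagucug
The 3 seeds differ, so the 3 microRNAs form no shared seed group.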

How the data were processed

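ChIP-seq was deposited for 6 ChIP libraries and their 4 inputs (10 samples). CASAVA 1.8.2 and the build mm9 come from the submitters' processing notes. For the aligner, peak caller and gene models nothing is given in the sources used here. Per the file headers, each of the 6 deposited lists gives a region's edges, ChIP and input tag counts, the height of both signal profiles, and the authors' ratio of tags (tag enrichment). The deposited column headed −log10 q-value was too large for that scale, so it was treated as a score and not used. Per the file headers, gene names and distances are the authors'. Coordinates are printed as deposited.

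Regions were counted once per index. Overlap was at least 1 bp, computed in Python 3.11.15. bedtools 2.31.1 found the same 8214 regions, and on simulated lists 100% of 9546 planted overlaps were found. Distances are between facing edges. Shares have Clopper-Pearson and medians distribution-free binomial intervals (95%). Promoters and microRNAs were matched by symbol or a single synonym to RefSeq tables (99.0% of 5682 symbols known), used for names and sequences only. The regions, the 11 gene lists and the markers were chosen with earlier results of these data known. Genes were named by rule: the 4 markers, definitive endoderm and Nodal genes with such a region, the genes with most regions (13 with ties), genes of the 10 highest regions by height and by enrichment, and the 4 highest of each other list. Others (Rgs6, Isl1, Epcam, Dsp, Mesp2, Tcf7l1, Esrrb, Cacna2d2, the genes with HEB-only regions alone, the microRNAs, genes at the edge of the rule or in ESC lists) were chosen after their values were seen. The same holds for Gata2 and Tbx20. Alternatives were the overlap rule, the upper 50% of lists, added lists and other definitions. Input libraries entered only through the input columns. Values of some genes that the rule would name are not reported here, while counts over lists include every member.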

Additional observations from a re-analysis of the deposited data

How the results depend on the processing

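The 8 summary results were recomputed under 8 planned settings and 1 added after seeing the data (a tag enrichment of at least 3), which gave 57 values, 30 of them within the interval of the reported value or, for counts, within 1.5 times of it. Limiting Endoderm HEB to its upper 50% by height left 3336 HEB-only regions, with 3.78% promoter-proximal, a median height of 52.7, tag enrichment of 17.3, SMAD2/3 distance of 43.4 kb, 1.71% in ESC+SB HEB, 239 genes with several regions and 5 definitive endoderm genes. By tag enrichment these were 4332, 2.47%, 43.1, 16.8, 55.7 kb, 0.762%, 345 and 4. With the upper 50% of all 6 lists the values outside were 4592 regions, a height of 54.1, an enrichment of 17.0, 88.1 kb, 1.72% and 360 genes. Fewer regions enter these 3 settings by construction. Counting regions within 500 bp as overlapping gave 4.84% promoter-proximal and 50.9 kb. Excluding ESC+SB HEB and ESC SMAD2/3 overlaps as well gave 4.36% promoter-proximal, and counting only regions that cover the 5′ end 2.90%. At 3 or more regions a gene, 334 genes remained. The added setting moved none of the 8 results beyond these bounds. No paired analysis was possible because each group has 1 library. Library depths are not among the values used here, and no value below the listing threshold was available, so the part of depth in the absence of a site from a list was not tested.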
